A study of Homo sapiens with 28 samples.

Results

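Suspended cells of the Tpm2.1 line were parted after 5 hours into an apoptotic and a non-apoptotic fraction, and the RNA of the 2 fractions was compared here. The 4 libraries, 2 per fraction, were chosen by their labels from the 28 of the series. The parent line is MDA-MB-231, established from a human breast cancer without hormone receptors, and it was made to overexpress Tpm2.1, a tropomyosin, that is a protein that winds along actin filaments, encoded by TPM2. All groups were kept in serum with puromycin. Cells stood for 5 hours in ultra-low attachment plates and were then parted on Annexin V microbeads. The bound cells are the apoptotic fraction and the unbound cells the non-apoptotic one. Both fractions carry the Tpm2.1 construct, both were in suspension and both went over the beads. Attached Tpm2.1 cells (2 libraries, 6 hours on tissue culture plates) and suspended cells of the empty vector line (EV, 2 libraries at 5 hours) are quoted as reference levels, and no bead separation is stated for either. A single Tpm2.1 line is described, and each title counts its library as a biological replicate without saying how the cultures were set apart. The p-values rest on the spread between replicate libraries, which may be technical, estimated over all 28 libraries in 14 groups. They do not measure the spread of the 4 libraries compared here alone. These are bulk libraries, in which fewer cells of a type and less RNA per cell cannot be told apart.

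Anoikis is the apoptosis that epithelial cells enter when they lose their attachment to matrix. In the intrinsic pathway, BH3-only proteins block the survival proteins of the BCL2 family, BAX and BAK then open the outer mitochondrial membrane, and the released cytochrome c activates caspases on APAF1. Caspases switch on scramblases and switch off flippases, so that phosphatidylserine, a lipid of the inner leaflet of the plasma membrane, appears at the cell surface, where Annexin V binds it. Most of these steps work on proteins already made, so a fraction taken on Annexin V is defined by its membrane and not by its transcripts.

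Gene counts summed to 14804219 and 16156388 in the apoptotic libraries and to 21200006 and 25481208 in the non-apoptotic ones, and 17191 genes were tested. Levels are CPM, counts scaled to the effective library size. A log2 fold change is apoptotic over non-apoptotic with its standard error (SE), and a gene passed where edgeR's adjusted p was under 0.05. The line was checked first. TPM2 (ENSG00000198467, hg38 chromosome 9, 35681992 to 35690121) stood at 2689 and 2461 CPM in the apoptotic libraries and at 2543 and 2570 CPM in the non-apoptotic ones. The groups overlapped and the log2 fold change was 0.01 ± 0.071, which did not pass (adjusted p = 0.943), while EV cells at 5 hours had 36.9 CPM. Summed levels of marker lists are scaled to total counts and not to the effective library size. All 9 MDA-MB-231 markers listed were tested, and 5 of the 9 passed as lower and none as higher. Their summed level was 4331 to 4398 CPM in the apoptotic and 4801 to 4842 CPM in the non-apoptotic libraries. Of 12 blood and immune markers 7 were at 0 in all 4 libraries. Of 10 luminal markers CDH1 alone was at 0 in all 4, and 8 were tested, of which none passed. The summed level of the 10 was 33.4 to 36.5 CPM in the apoptotic and 33.7 to 35.2 CPM in the non-apoptotic libraries. The summed level of 10 endothelial and fibroblast markers, was 92.1 to 94.6 CPM against 71.5 to 71.75 CPM. Of the 7 tested COL1A1, a collagen chain, rose from 56.7 and 54.6 CPM to 73.1 and 76.998 CPM, none fell, and the median was -0.23, while after the correction for GC content described below none rose. The part of these markers in the results was not tested.

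The fractions differed in many genes by little. Of the 17191 genes 3683 passed (21.4%), 1660 higher (9.66%) and 2023 lower (11.8%) in the apoptotic fraction, and the median absolute log2 fold change of those that passed was 0.29. Changes past 2-fold lay almost wholly on one side: 269 genes were higher (1.56%) and 10 lower (0.0582%). Of these, 106 of the higher and 6 of the lower genes are protein-coding. The 2 apoptotic libraries were less alike than the 2 non-apoptotic ones, with a chi-square per degree of freedom between replicates of 6.757 against 2.213. The count of passing genes was 1712 without apoptotic replicate 2, 1687 without non-apoptotic replicate 1 and 2225 without non-apoptotic replicate 2. Each such removal leaves a group with 1 library.

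**Figure D1:**
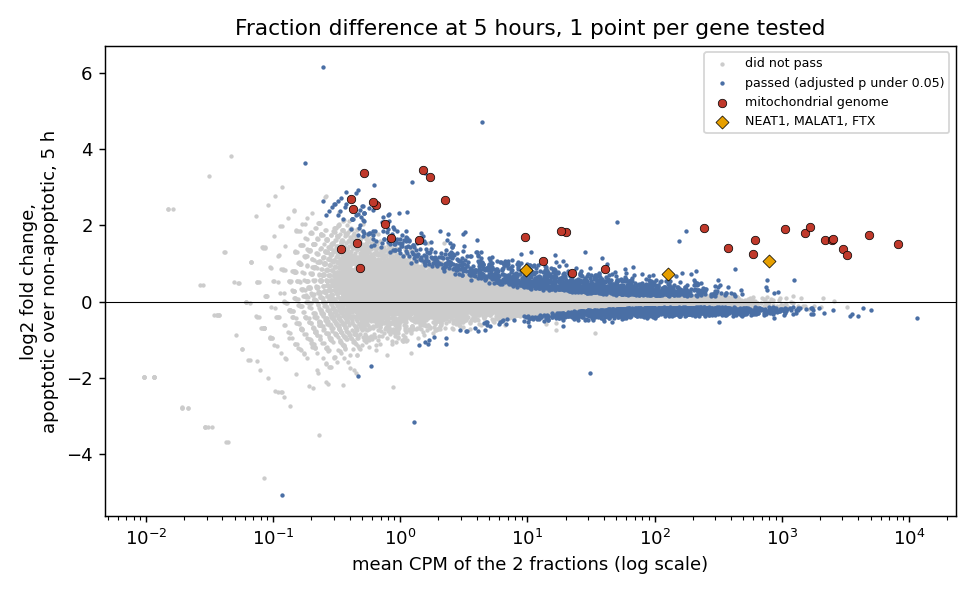
Each point is a gene tested. The x axis is its mean CPM over the 2 fractions on a log scale and the y axis its log2 fold change, apoptotic over non-apoptotic, at 5 hours. Blue points passed and grey ones did not. Genes of the mitochondrial genome (red) all lie above 0, as do the nuclear RNAs NEAT1, MALAT1 and FTX (orange), while most other well-counted genes lie close to 0.

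The RNAs of the mitochondrial genome were the clearest difference. This small circular genome is transcribed inside the organelle and encodes 13 subunits of the respiratory chain and ATP synthase, 2 ribosomal RNAs and the transfer RNAs. All 13 mRNAs rose in the apoptotic fraction, by 2.33-fold to 3.9-fold, with a median log2 fold change of 1.62 beside 0.00 over all genes. Both ribosomal RNAs rose as well, and so did 16 of the 19 transfer RNAs tested, none falling. All 13 mRNAs passed whichever of the 4 libraries was left out.

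Complex I, which takes electrons from NADH, has 7 of the 13 mRNAs. MT-ND1 (mitochondrial genome, 3307 to 4262) stood at 2287 and 3077 CPM in the apoptotic libraries and at 716 and 658 CPM in the non-apoptotic ones. Both apoptotic values lay above every non-apoptotic, attached and EV value, with a log2 fold change of 1.97 ± 0.126 (adjusted p = 9.06e-14). MT-ND5 went from 493 and 399 CPM to 1490 and 1834 CPM, by 1.90 ± 0.134. MT-ND6, the mRNA encoded on the opposite strand to the others, went from 122 and 84.9 CPM to 366 and 412 CPM, by 1.92 ± 0.151. Whether the counting used strand is not given in the sources used here, so reads of MT-ND6 and of the transcripts across from it may not have been told apart. MT-ND2, MT-ND4 and MT-ND4L rose by 1.62, 1.74 and 1.61, and MT-ND3 by 1.25.

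Complex IV, which passes electrons to oxygen, has 3 of the mRNAs. MT-CO1 (5904 to 7445) stood at 10234 and 14285 CPM in the apoptotic and at 4584 and 4029 CPM in the non-apoptotic libraries, a log2 fold change of 1.51 ± 0.116. MT-CO2 rose by 1.38 ± 0.115 and MT-CO3, which had the smallest fold change of the 13, by 1.22 ± 0.11. MT-CYB of complex III rose by 1.81, and the ATP synthase subunits MT-ATP6 and MT-ATP8 by 1.62 and 1.83. MT-RNR2, the large ribosomal RNA, went from 1301 and 1156 CPM to 3286 and 4380 CPM, by 1.64 ± 0.108, and MT-RNR1, the small one, rose by 1.41 ± 0.091. The fractions therefore differed over the whole genome of the organelle, in mRNAs and ribosomal RNAs alike.

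Set against attached Tpm2.1 cells, the fractions lay on either side. These comparisons share the attached libraries, and in them 49.5% of genes passed in the apoptotic fraction (22.9% higher, 26.6% lower) and 45.2% in the non-apoptotic one (20.7% higher, 24.5% lower). All 13 mitochondrial mRNAs were higher in the apoptotic fraction than in attached cells, and 10 of 13 were lower in the non-apoptotic fraction. MT-ND1 had 1247 CPM in attached cells, a log2 difference of 1.10 for the apoptotic and of -0.86 for the non-apoptotic fraction. MT-ND5 differed by 0.50 and by -1.39. The share of all counts that fell on mitochondrial mRNAs was 3.87% and 5.34% in the apoptotic libraries and 1.62% and 1.44% in the non-apoptotic ones, a 3.01-fold ratio of the means. It was 2.16% ± 0.0228 in attached Tpm2.1 cells and 3.14% ± 0.0591 in the EV cells at 5 hours (SD, n = 2).

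**Figure D2:**
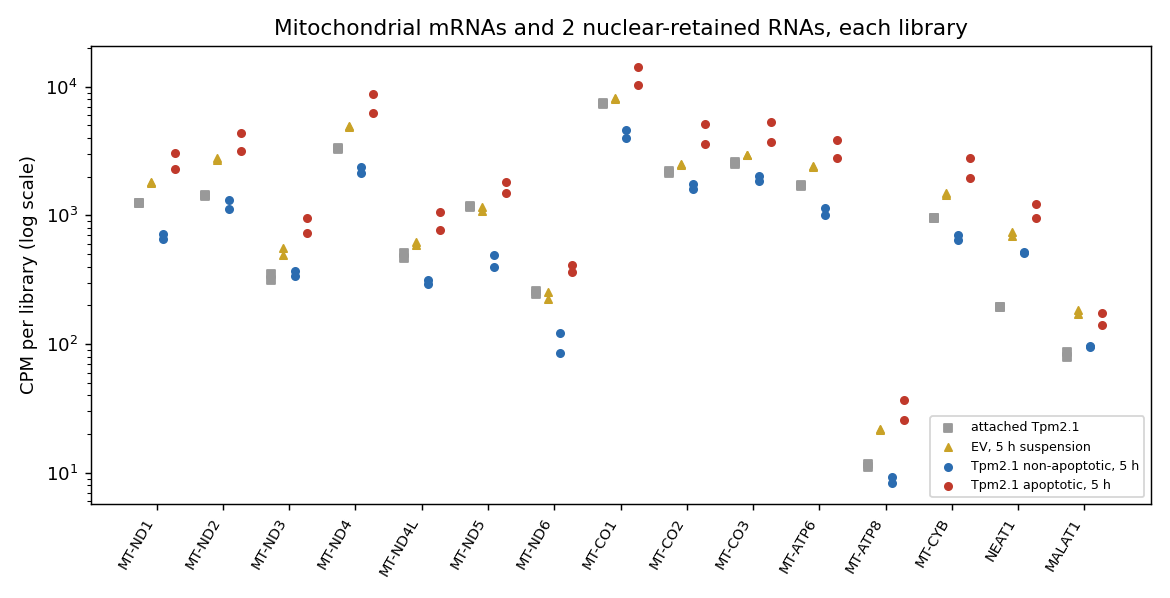
CPM in each library (log scale) of the 13 mitochondrial mRNAs, NEAT1 and MALAT1. The 2 apoptotic libraries (red) lie above the 2 non-apoptotic ones (blue) for every RNA drawn, and for MT-ND1, at 2287 and 3077 CPM, also above attached cells (grey squares) and EV cells (yellow triangles).

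Genes for the other subunits of the same complexes are in the nucleus, and these did not move with the mitochondrial ones. Of 32 nuclear-encoded respiratory chain genes 3 rose and 6 fell, with a median of -0.04, over the removals of a library 1 or 2 rose and 2 to 5 fell, and after the GC correction described below 1 rose and 8 fell. Over all genes 9.66% were higher and 11.8% lower, and log2 fold changes of the list ran from -0.30 to 0.37. The 2 genes given next both lie on its lower side. NDUFS5, a complex I subunit, had 82.7 and 76.6 CPM in the apoptotic and 96.0 and 99.6 CPM in the non-apoptotic libraries, a log2 fold change of -0.30. ATP5F1B, the catalytic subunit of ATP synthase, had 707 and 657 CPM against 804 and 805 CPM, a log2 fold change of -0.24. Both apoptotic values were the lower ones in each case.

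Some RNAs of the nucleus formed the other group that was higher in the apoptotic than in the non-apoptotic fraction. NEAT1 (ENSG00000245532, chromosome 11, 65422774 to 65445540), the scaffold RNA of nuclear paraspeckles, stood at 953 and 1219 CPM in the apoptotic and at 513 and 522 CPM in the non-apoptotic libraries. The libraries did not overlap, and the log2 fold change was 1.07 ± 0.12 (adjusted p = 5.82e-08). MALAT1, an RNA of nuclear speckles, had 142 and 174 CPM against 96.8 and 94.7 CPM, a log2 fold change of 0.73 ± 0.093. FTX, a noncoding RNA of the X inactivation centre, rose by 0.83 ± 0.153, and without apoptotic replicate 2 it did not pass (adjusted p = 0.0578). In all 3 of the 8 listed nuclear RNAs tested rose and none fell, with a median of 0.41, beside 9.66% of all genes higher. KCNQ1OT1, an imprinted antisense RNA, had 3.39 and 6.87 CPM against 2.56 and 3.59 CPM and did not pass (adjusted p = 0.084). TUG1 and NORAD, which are also found in the cytoplasm, had log2 fold changes of -0.07 and -0.08 that did not pass. In attached cells NEAT1 stood at 195.6 CPM, so both fractions were above that level, by 2.47 and 1.40 on the log2 scale. EV cells at 5 hours had a mean of 720 CPM of NEAT1, between the fractions. Their means were 178 CPM for MALAT1 and 11.7 CPM for FTX, beside 158 and 12.6 CPM in the apoptotic fraction.

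Other noncoding classes shifted in the same direction. The median log2 fold change was 0.38 over 1129 antisense RNAs, 0.25 over 877 long intergenic RNAs, 0.49 over 176 sense intronic RNAs and 0.50 over 171 transcripts that GENCODE lists as awaiting experimental evidence. It was -0.03 over 13343 protein-coding genes. Among antisense RNAs 82 rose (7.26%) and 3 fell, and among long intergenic RNAs 68 rose (7.75%) and 4 fell, so the shares that rose were below the 9.66% of all genes. These genes are scarce, with medians of 0.811 and 0.889 CPM against 29.4 CPM for protein-coding genes, and the 2665 nuclear protein-coding genes with the lowest levels also had a positive median, of 0.20. Without apoptotic replicate 2 the numbers of antisense and long intergenic RNAs that rose were 30 and 23. With counting by strand not given in the sources used here, reads of an antisense gene and of its partner may not have been told apart. The part of level in the shift was not tested. Among nuclear protein-coding genes the share that fell went from 0.338% in the lowest of 5 level classes to 38.8% in the highest, which starts at 92.43 CPM, so for lists of abundant genes the 11.8% of all genes is a low background.

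Among nuclear protein-coding genes the direction followed base composition. The genes were parted into 5 classes of like size by the GC content of their longest transcript, from 30.24% to 40.81% in the lowest and from 58.35% to 74.48% in the highest. In the lowest class 1.73% of genes rose and 29.3% fell, with a median of -0.15, and in the highest 29.04% rose and 0.113% fell, with a median of 0.22. The classes between had medians of -0.14, -0.08 and 0.05, in order of rising GC content. With a library left out, 352 to 550 genes fell in the lowest class, beside 781 with all libraries, and 364 to 535 rose in the highest, beside 774. The same split at 1 day gave medians of -0.03 and 0.05 in the lowest and highest class, and at 2 days of -0.01 and -0.05. At 4 days the medians were 0.88 and -2.31, in the opposite order to 5 hours. After a correction that removed a smooth trend on GC content from each library, 2995 genes passed, 785 higher and 2210 lower, of which 2025 also passed without the correction in the same direction. For the gene groups below, the higher and lower counts after the correction are given with those before it. The background for counts after it is 785 higher and 2210 lower of 17183 genes, not 9.66% and 11.8%. Among 13323 nuclear protein-coding genes 526 rose and 2175 fell after it. A short list in which none rose after it therefore need not stand apart from all genes. The apoptotic libraries were also the shallower pair, and the part of depth in the trend was not tested.

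**Figure D3:**
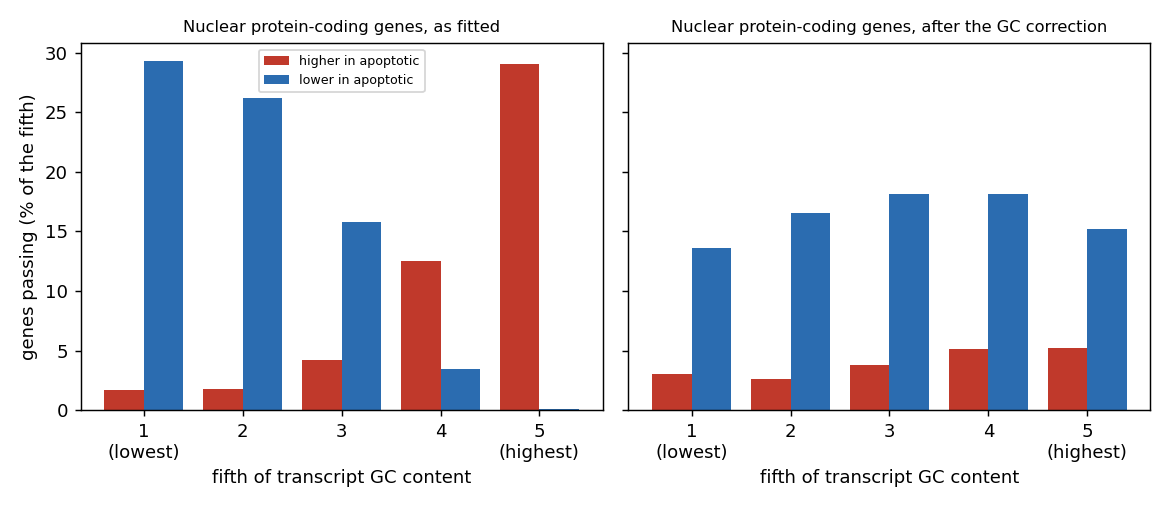
Bars give the share of nuclear protein-coding genes that passed, higher (red) or lower (blue) in the apoptotic fraction, in each of 5 classes of transcript GC content, as fitted (left) and after the GC correction (right). On the left the share of higher genes goes from 1.73% to 29.04% and that of lower genes from 29.3% to 0.113%, and on the right lower genes outnumber higher ones in all 5.

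Coding sequence shows how genes of high and low GC content differ. ENDOG and TRADD, which passed as higher before the correction and not after it, and BUB1B and CKAP2, which passed as lower both times, are shown by the 120 bases at the middle of their coding sequence (GENCODE 29, GRCh38, sense strand, 5′ to 3′), with G and C in capitals. The stretches are bases 386 to 505 of ENDOG (chromosome 9, plus strand, transcript at 128818474 to 128822677), 409 to 528 of TRADD (chromosome 16, minus strand, 67154180 to 67160298), 1516 to 1635 of BUB1B (chromosome 15, plus strand, 40161026 to 40221136) and 964 to 1083 of CKAP2 (chromosome 13, plus strand, 52455439 to 52476349).
ENDOG: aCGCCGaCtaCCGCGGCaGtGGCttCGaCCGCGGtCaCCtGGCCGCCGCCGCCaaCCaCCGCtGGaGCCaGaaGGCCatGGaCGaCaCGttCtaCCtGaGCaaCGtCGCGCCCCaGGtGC
TRADD: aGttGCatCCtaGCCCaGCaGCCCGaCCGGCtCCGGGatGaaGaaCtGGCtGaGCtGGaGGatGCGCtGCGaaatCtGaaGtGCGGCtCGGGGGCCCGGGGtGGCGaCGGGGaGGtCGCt
BUB1B: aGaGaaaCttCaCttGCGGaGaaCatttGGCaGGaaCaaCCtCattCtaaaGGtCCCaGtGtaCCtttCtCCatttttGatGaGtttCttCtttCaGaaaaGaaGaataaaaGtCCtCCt
CKAP2: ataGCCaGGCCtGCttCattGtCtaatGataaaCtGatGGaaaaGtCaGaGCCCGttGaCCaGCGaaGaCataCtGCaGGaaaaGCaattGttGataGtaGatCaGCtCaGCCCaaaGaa
Over the whole coding sequence G and C make up 68.8% in ENDOG and 69.2% in TRADD, against 43.4% in BUB1B and 39.2% in CKAP2.

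The transcripts of the apoptosis machinery moved little and both ways. Of 7 BH3-only genes tested, the initiators of the pathway, 1 passed. That gene, BBC3 (PUMA), stood at 10.2 and 10.1 CPM in the apoptotic and at 7.46 and 7.49 CPM in the non-apoptotic libraries. The values were apart, with a log2 fold change of 0.44 ± 0.144 (adjusted p = 0.0238), but the call was lost without any 1 of the 4 libraries (adjusted p = 0.0969 to 0.124), and after the GC correction the fold change was 0.00 and 0 of the 7 passed. BMF, a BH3-only gene tied to detachment from the cytoskeleton, had 14.3 and 15.8 CPM against 13.8 and 15.6 CPM. These overlapped, and the 95% interval of its log2 fold change ran from -0.17 to 0.24. In attached Tpm2.1 cells BMF stood at 3.45 CPM, so both fractions had risen, by 2.12 and 2.09 on the log2 scale, and did not differ detectably. EV cells at 5 hours had 34.3 and 32.6 CPM of BMF, above both fractions. PMAIP1 (NOXA), at 90.9 and 93.7 CPM against 94.7 and 90.7 CPM, and BCL2L11 (BIM), at 22.4 and 20.1 CPM against 20.8 and 20.4 CPM, also overlapped.

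BAX, which forms the pore in the outer mitochondrial membrane, was the clearest of the death genes. It stood at 61.2 and 61.9 CPM in the apoptotic and at 47.5 and 49.9 CPM in the non-apoptotic libraries, with no overlap. The log2 fold change was 0.34 ± 0.066 (adjusted p = 3.28e-04), and 0.13 after the GC correction, which did not pass (adjusted p = 0.148). Attached cells had 67.5 CPM, from which the non-apoptotic fraction differed by -0.47 while the difference of the apoptotic fraction, -0.13, did not pass. BAK1, the other pore former, had 71.5 and 63.7 CPM against 64.3 and 66.6 CPM and did not pass. Of the survival genes, BCL2L2 rose by 0.30 ± 0.088, a call that held only with apoptotic replicate 1 left out (adjusted p = 0.00463) and not without any other library (up to 0.343). After the GC correction BCL2L2 did not pass (adjusted p = 0.0915), and of the 5 survival genes none rose and 1 fell. MCL1, at 462 and 449 CPM against 493 and 472 CPM, and BCL2 did not pass.

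Downstream genes were as mixed. Of 15 caspase and apoptosome genes 1 rose and 1 fell, 13.3% of the list beside 21.4% of all genes, and after the GC correction none rose and 1 fell. The gene that rose, ENDOG, a mitochondrial nuclease, had 12.5 and 10.9 CPM against 8.11 and 8.61 CPM (log2 fold change 0.48 ± 0.148). The values were apart, but the call was lost without 3 of the 4 libraries, at adjusted p up to 0.166. The initiator CASP8 and the apoptosome scaffold APAF1 had log2 fold changes of -0.05 and -0.19 that did not pass. Of 12 death receptor genes the adaptor TRADD rose by 0.43 ± 0.103 and the kinase RIPK1 fell by 0.19, the former in all 4 removals of a library and the latter in 1. None of the 12 rose and 3 fell after the GC correction. The receptors TNFRSF10B and FAS had log2 fold changes of -0.09 and 0.02 that did not pass. Of 5 inhibitors of apoptosis BIRC2 fell by 0.22, which was lost without apoptotic replicate 2 or non-apoptotic replicate 1 (adjusted p up to 0.159), and none passed after the GC correction. BIRC3, at 71.5 and 81.7 CPM against 76.2 and 74.4 CPM, overlapped.

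Of 20 targets of p53, the stress-activated transcription factor, 5 rose and 1 fell, with a median of 0.08. Over all genes 9.66% rose and 11.8% fell. FDXR, a mitochondrial ferredoxin reductase, rose by 0.51 ± 0.144, and PHLDA3, an AKT inhibitor, by 0.46 ± 0.166. CDKN1A, the cell cycle inhibitor p21, had 190 and 186 CPM against 170 and 166 CPM, a log2 fold change of 0.17. BAX and BBC3, described above, and PPM1D, a phosphatase that fell by 0.27, complete the 6. After the GC correction 0 of the 20 passed in either direction, and with each library left out in turn 1 or 2 rose. FDXR was lost without apoptotic replicate 2 or non-apoptotic replicate 1 (adjusted p up to 0.121), and CDKN1A and PHLDA3 without any 1 library (up to 0.224 and 0.254).

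None of the genes listed for the surface lipid that defines the fractions passed as higher. Of 20 flippase and scramblase genes none rose and 3 fell (4 after the GC correction), with a median of -0.09. That is 15% of the list, near the 11.8% lower over all genes. ANO6, a calcium-activated scramblase, had 85.3 and 91.7 CPM in the apoptotic and 111 and 107 CPM in the non-apoptotic libraries, a log2 fold change of -0.30 ± 0.055 (adjusted p = 1.69e-04). ATP10D, a flippase, fell by 0.31 ± 0.078 and the scramblase partner NPTN by 0.18. ATP10D was lost without apoptotic replicate 1 (adjusted p = 0.0627) and NPTN kept its call only with apoptotic replicate 2 left out (elsewhere up to 0.56). XKR8, the scramblase that caspases cleave, had 18.1 and 17.6 CPM against 15.5 and 17.4 CPM and did not pass (95% interval -0.12 to 0.35). TMEM30A, a chaperone of flippases, had a log2 fold change of -0.13 that did not pass. Of 11 annexins, proteins that bind such lipids, 4 fell and none rose, both before and after the GC correction. That is 36.4% of the list, beside 11.8% lower over all genes. In the highest level class of nuclear protein-coding genes 38.8% were lower, and the annexins were not matched on level. ANXA5 itself had 496 and 489 CPM against 572 and 575 CPM, a log2 fold change of -0.22. ANXA1 had 451 and 450 CPM against 583 and 552 CPM, a log2 fold change of -0.33.

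**Figure D4:**
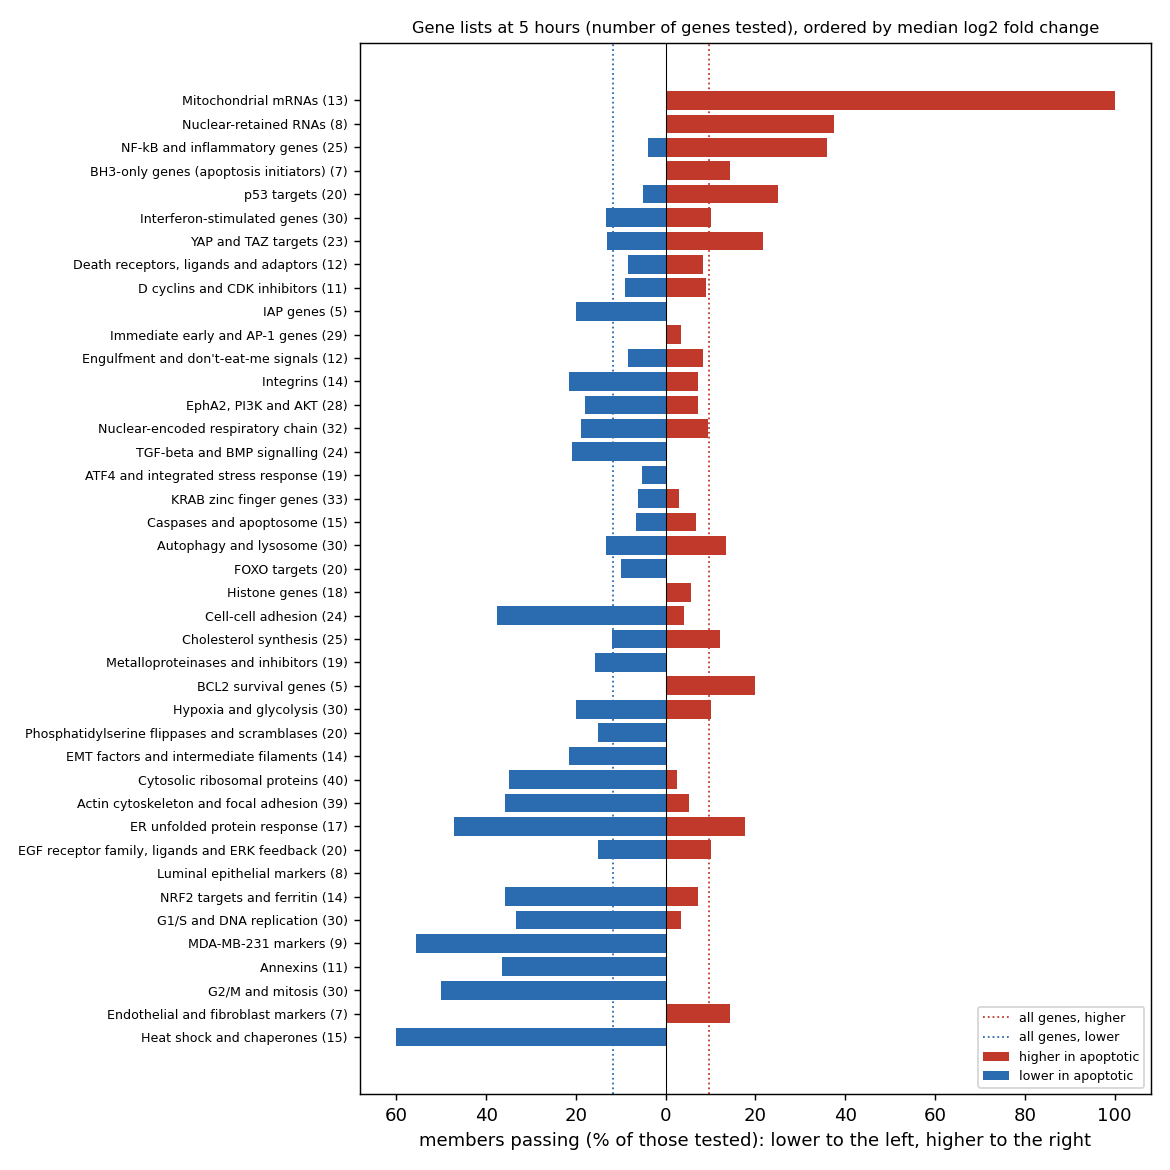
Bars give the percent of the tested members of each gene list that passed, lower to the left (blue) and higher to the right (red), for lists with at least 5 genes tested, ordered by median log2 fold change. Dotted lines mark the shares over all genes, 9.66% higher and 11.8% lower; mitochondrial mRNAs (13 of 13 higher) and heat shock genes (9 of 15 lower) stand at the ends of the order.

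Heat shock genes fell as the largest share of any list tested. These chaperones fold new and damaged proteins, and 9 of 15 fell while none rose, with a median of -0.24, beside 11.8% lower over all genes and 38.8% in the highest level class. After the GC correction 12 fell, and with a library left out 6 to 9. HSP90AA1, the inducible cytosolic HSP90, stood at 3043 and 2910 CPM in the apoptotic and at 3917 and 3856 CPM in the non-apoptotic libraries, with no overlap, and its log2 fold change was -0.38 ± 0.055 (adjusted p = 4.72e-06). HSP90AB1 and HSPA8 fell by 0.37 and 0.33, and HSPH1 by 0.32. In attached cells HSP90AA1 had 2832 CPM, which the non-apoptotic fraction exceeded by 0.46 on the log2 scale while the apoptotic fraction did not differ detectably (0.07, adjusted p = 0.285). For HSP90AB1 these differences were 0.46 and 0.09. Most of the list differed from these: against attached cells 12 of the 15 genes were higher in the apoptotic fraction and all 15 in the non-apoptotic one, with medians of 0.53 and 0.55, and HSPH1 was higher by 0.61 and 0.93.

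Genes of the cell cycle that passed were nearly all lower. Of 30 G2/M genes 15 fell and none rose (median -0.19), and of 30 G1/S and replication genes 10 fell and 1 rose (median -0.13), with 16 and 17 falling after the GC correction, when 1 G2/M gene rose and no G1/S gene did. Over all genes 11.8% were lower and 9.66% higher, and at least 15 members of each list did not pass. In the highest level class of nuclear protein-coding genes, which starts at 92.43 CPM, 38.8% were lower. These lists were not matched on level. BUB1B, a kinase of the spindle checkpoint, had 72.4 and 77.1 CPM against 97.9 and 103 CPM, a log2 fold change of -0.43 ± 0.065 (adjusted p = 1.39e-05). BUB1, its partner at the kinetochore, and CKAP2, a spindle protein, each fell by 0.36, and RRM1, the large subunit of ribonucleotide reductase, by 0.38. BUB1B did not differ detectably between the non-apoptotic fraction and attached cells (-0.05), and was lower by 0.47 in the apoptotic one. Most of the G2/M list was lower than attached cells in both fractions, 28 of 30 genes in the apoptotic and 23 in the non-apoptotic one, with medians of -0.50 and -0.37. Without apoptotic replicate 2 the numbers falling were 10 of the G2/M and 4 of the G1/S genes.

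Genes of attachment and the cytoskeleton that passed were mostly lower, by small amounts. Of 39 actin and focal adhesion genes 14 fell and 2 rose, and 23 and none did after the GC correction, beside 11.8% lower and 9.66% higher over all genes. In the highest level class of nuclear protein-coding genes 38.8% were lower, and the lists of this paragraph were not matched on level. MYL12B, a myosin light chain, and RDX, which ties actin to the membrane, fell by 0.31 and 0.30, and TPM4, another tropomyosin, by 0.26 (879 and 854 CPM against 1050 and 1019 CPM). Of 24 cell-cell adhesion genes 9 fell and 1 rose, with 5 falling without apoptotic replicate 1 and 10 falling and none rising after the GC correction. The desmosomal cadherin DSG2 had 214 and 224 CPM against 281 and 283 CPM, a log2 fold change of -0.36 ± 0.06, and the catenins CTNND1 and CTNNA1 fell by 0.30 and 0.25. Among 14 integrins 1 rose and 3 fell (1 and 2 after the correction). ITGB1, the most widely shared beta chain, fell by 0.31, and ITGA10, a collagen-binding chain, rose by 0.88 ± 0.204 from 4.43 and 5.75 CPM to 9.06 and 9.82 CPM. Without apoptotic replicate 2, the actin list had 7 genes falling.

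The axis of the receptor EPHA2 and the kinase AKT, named in the title of the study, showed little between the fractions. EPHA2 had 351 and 350.1 CPM against 325 and 339 CPM, a log2 fold change of 0.08 ± 0.052 that did not pass (adjusted p = 0.32). After the GC correction it was -0.15 and passed (adjusted p = 0.021), so its direction depended on that step. Both fractions stood under the 755 CPM of attached cells, at -1.11 and -1.19 on the log2 scale. AKT1, at 141 and 137 CPM against 124 and 139 CPM, behaved alike, with 0.08 before and -0.19 after the correction (adjusted p = 0.427 and 0.0314). AKT2 rose by 0.30 ± 0.066 and did not pass after the correction (adjusted p = 0.2) or without apoptotic replicate 1 (0.0502). Of the 28 genes of this list 2 rose and 5 fell, beside 9.66% higher and 11.8% lower over all genes. PIK3CB, a catalytic subunit of PI3K, at -0.31 and INPPL1, a lipid phosphatase, at 0.26 were among them. After the correction none rose and 7 fell, and without apoptotic replicate 2 the number falling was 1.

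Inflammatory genes leaned the other way. Of 25 genes on the list of NF-kB targets and inflammatory mediators, 9 rose and 1 fell, with a median of 0.19. Over all genes 9.66% rose and 11.8% fell. After the GC correction 5 of the list rose and 2 fell. LIF, a cytokine of the interleukin 6 family, had 116 and 121 CPM against 91.0 and 88.8 CPM, a log2 fold change of 0.40 ± 0.06 (adjusted p = 9.74e-06) that held after the correction at 0.23. TNFAIP3, which shuts NF-kB signalling off, rose by 0.31, and NFKBIZ, a nuclear cofactor of NF-kB, by 0.39, both lost without apoptotic replicate 2 (adjusted p = 0.111 and 0.302). CXCL1 and CXCL2, neutrophil chemokines, rose by 0.38 and 0.39 at 8.06 to 16.3 CPM over the 4 libraries, and IL1B fell by 0.25, from 131 and 128 CPM to 109 and 110 CPM. CXCL1 and IL1B were lost without any 1 of the libraries, CXCL2 without 2 of them. TNFAIP2 and CSF3 rose by 0.34 and 0.32 and did not pass after the correction, and CSF3 was lost without apoptotic replicate 2 or non-apoptotic replicate 2 (adjusted p up to 0.15). With apoptotic replicate 2 left out 3 genes of the list rose.

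Targets of YAP and TAZ, cofactors that read cell spreading, were split, with 5 rising and 3 falling of 23, and 1 to 6 rising over the removals of a library, fewest without non-apoptotic replicate 2. After the GC correction 3 rose and 2 fell. For this and the other lists of this paragraph, the shares over all genes before the correction were 9.66% higher and 11.8% lower. CYR61, a secreted matrix protein, had 258 and 233 CPM against 169 and 173 CPM, a log2 fold change of 0.52 ± 0.081, though attached cells had 2726 CPM and the fractions differed from these by -3.47 and -3.99. F3, tissue factor, rose by 0.28 (lost without non-apoptotic replicate 2, adjusted p = 0.135), and NT5E, an enzyme that makes adenosine, fell by 0.27. Of 14 NRF2 targets 1 rose and 5 fell (2 falling without apoptotic replicate 2, and 1 and 4 after the GC correction), with TXNRD1 and NQO1 at -0.32 and -0.29, while SRXN1, which repairs peroxiredoxins, rose by 0.73 ± 0.165 from 6.944 and 9.996 CPM to 16.5 and 11.99 CPM. SRXN1 was lost without apoptotic replicate 1 or non-apoptotic replicate 1 (adjusted p up to 0.0912). Of 17 genes of the unfolded protein response 3 rose and 8 fell (2 falling without non-apoptotic replicate 1, and none and 7 after the GC correction), SDF2L1 at 0.43 and SEL1L at -0.31. SDF2L1 did not pass after the GC correction. Of 29 immediate early genes JUNB alone passed, at 0.34. After the correction it did not pass, and 5 others of the list fell, with a median of -0.16. Of 30 hypoxia and glycolysis genes 3 rose and 6 fell, the lactate exporter SLC16A3 at 0.39 and LDHA at -0.30 among them, and after the correction none rose and 10 fell.

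The ends of the protein-coding range were partly genes with copies. Among those with at least 5 CPM in a fraction, SMN1 stood lowest at -1.86, with 13.2 and 13.1 CPM against 79.7 and 17.4 CPM, but its near-identical copy SMN2 can take its reads, and without non-apoptotic replicate 1 the fold change was -0.41 and did not pass (adjusted p = 0.722), and the call was also lost without either apoptotic library. BOLA2B, highest at 4.71 with 13.8 and 3.25 CPM against 0.326 and 0.309 CPM, has the near-identical copy BOLA2, is as uncertain and was lost without apoptotic replicate 1 (adjusted p = 0.11). LDHB, the lactate dehydrogenase chain of oxidative tissues, stood at 37.7 and 38.4 CPM against 56.7 and 53.3 CPM, a log2 fold change of -0.53 ± 0.08 (adjusted p = 1.16e-05) that passed whichever library was left out. FAM72C, which has close paralogs, ZNF416, ZNF626, BACH2, a repressor of the bZIP family, and RARB, a retinoic acid receptor, lay between -0.73 and -0.52 at up to 12.3 CPM, and ZNF416, BACH2 and RARB were lost without any 1 library (adjusted p up to 0.199). FAM72C and ZNF626 were each lost without 3 of the 4 libraries (up to 0.406 and 0.163), and FAM72C and RARB did not pass after the GC correction.

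The fraction difference at 5 hours was then set against its mean at 1 and 2 days, from other libraries of the same line parted in the same way. Of 17191 genes 1193 passed this test of the difference (6.94%), 794 with a more positive (4.62%) and 399 with a more negative fold change at 5 hours (2.32%). After the GC correction 359 passed, and without non-apoptotic replicate 1 of 5 hours 325 did, and the other removals that moved the count by over 1.5 times left 619 without apoptotic replicate 1 of 5 hours, 629 without non-apoptotic replicate 2 of 5 hours and 678 without apoptotic replicate 2 of 1 day. With the size factors of DESeq2 the split was 612 to 636, and in DESeq2 itself 728 to 871, so the excess of positive values depended on the scaling.

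Genes of the translation machinery separated the times. Of 40 cytosolic ribosomal protein genes 1 rose and 14 fell at 5 hours, with a median of -0.10, and without apoptotic replicate 2 the number falling was 3. With the GC correction none rose and 21 fell at 5 hours. Over all genes 9.66% rose and 11.8% fell at 5 hours before the correction. In the highest level class of nuclear protein-coding genes, which starts at 92.43 CPM, 38.8% fell at 5 hours. The list was not matched on level at any of the times. At 1 day all 40 fell and at 2 days 39 did, beside 11.3% and 9.71% of all genes, with medians of -0.37 and -0.35. The difference passed in 27 of the 40, positive in each, in 15 after the GC correction and in 18 to 31 with a library left out. Nuclear-encoded respiratory chain genes did likewise, with 24 and 25 of 32 falling at 1 and 2 days, and the difference passed in 17 (12 after the correction, 10 to 20 with a library left out). RPS29, which was outside the list, had 249 and 253 CPM against 172 and 195 CPM at 5 hours, a log2 fold change of 0.45 ± 0.103, and fold changes of -0.50 and -0.85 at 1 and 2 days (difference 1.12 ± 0.127, adjusted p = 1.15e-06). At 5 hours it was lost without non-apoptotic replicate 1 (adjusted p = 0.0638).

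Mitochondrial mRNAs did not separate the times. All 13 rose at 1 day and at 2 days as well, beside 7.99% and 6.92% of all genes, with medians of 1.54 and 1.36, and none passed the test of the difference, though up to 7 did with a library left out and 1, MT-ND3, did after the GC correction. At 4 days, when 72.1% of all genes passed (35.3% higher, 36.8% lower), 12 of the 13 rose. NEAT1 had fold changes of 1.07, 1.13 and 0.94 at the 3 times. MALAT1 was lower at 5 hours, with 0.73 against 1.01 and 1.35, a difference of -0.45 (adjusted p = 0.0115) that did not pass after the GC correction (adjusted p = 0.0578). BAX went the other way, with 0.34 at 5 hours against -0.02 and -0.26 (difference 0.47, adjusted p = 2.47e-04, and adjusted p = 0.0273 after the GC correction), and BAK1 with 0.05 against -0.21 and -0.33. Of 30 G2/M genes 8 had a more negative fold change at 5 hours, 2 after the correction.

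**Figure D5:**
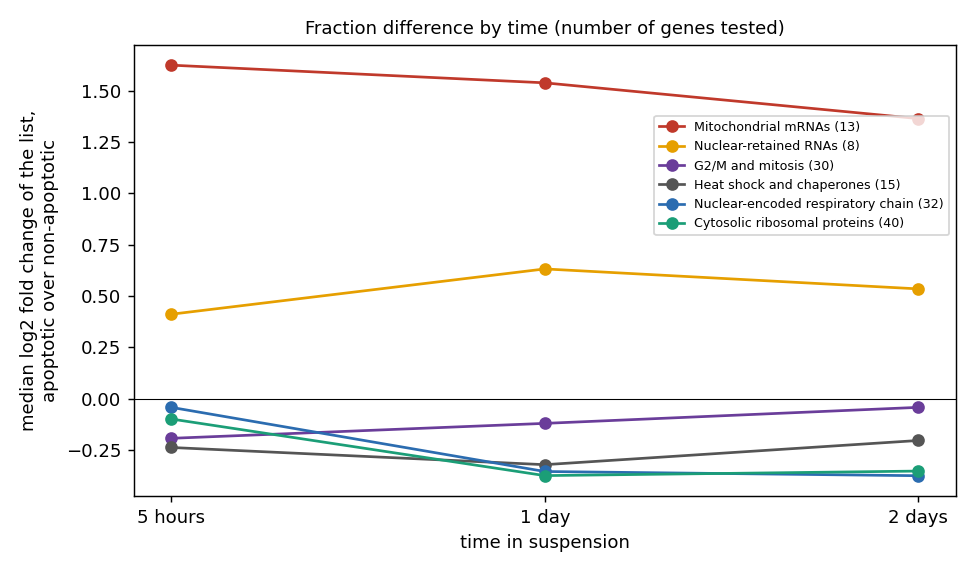
Median log2 fold change, apoptotic over non-apoptotic, of 6 gene lists at 5 hours, 1 day and 2 days, each from separate libraries. Mitochondrial mRNAs stay between 1.36 and 1.62, and ribosomal protein genes go from -0.10 at 5 hours to -0.37 and -0.35.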

How the data were processed

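Poly(A) RNA was sequenced per the labels' protocols (RNeasy extraction, poly-T beads, random hexamer primers, libraries by Novogene). The authors deposited counts per gene as whole numbers, which were used as deposited, and a table of normalised values for the same libraries, which was not used. The submitters' processing notes name hg38 and DESeq2 with no role. Aligner, counter and strand setting were not given in the sources used here. Identifiers and coordinates match GENCODE 29.

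Counts of all 28 libraries (13043529 to 27416335 in total; depth limits low-count genes) were fitted together with edgeR 4.0.16 in R 4.3.3 (TMM scaling, filterByExpr, quasi-likelihood F test, 1 mean per group, 14 residual degrees of freedom, common coefficient of variation 4.77%), with Benjamini-Hochberg adjustment over 17191 genes. SE is the absolute log2 fold change over the square root of F. GC content came from the longest transcript (17183 genes) and its lowess trend (span 0.2) was removed as an offset. Alternatives were DESeq2 1.42.0, its size factors, other filters and samples, a replicate block, and each library left out in turn. The fits were tested on simulated data.

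The members and the 43 gene lists were chosen with earlier results of these data known. Named genes were TPM2, EPHA2, AKT1, AKT2 and BMF, the 12 largest rises and 12 largest falls among passing protein-coding genes with at least 5 CPM and no overlap, the 3 members of each list with the smallest p, and 5 genes on either side of the time comparison. Not all of these are named in the text, and other list members were named after their values were seen. Some members of the lists are not reported here.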

Additional observations from a re-analysis of the deposited data

Results flagged for a closer look

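The fraction difference at 5 hours differed from its mean at 1 and 2 days in 1193 genes by edgeR's test of the difference, and the genes named here are those of the text that passed it. TPM2, without a detectable fraction difference at 5 hours, was lower in the apoptotic fraction by 0.39 and 0.37 at 1 and 2 days, a difference of 0.39 (log2). It did not pass after the GC correction (adjusted p = 0.0791).

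Some death and p53 genes had more positive fold changes at 5 hours, though most members of these lists did not pass. Passing were 4 of 20 p53 targets, 2 of 15 caspase genes, 2 of 3 pore formers and 1 of 12 death receptor genes. More positive values passed in 4.62% of all genes. None of the 7 BH3-only, 5 survival and 5 inhibitor genes passed. The differences were 0.47 for BAX, 0.32 for BAK1, 0.46 for TRADD, 0.75 for ENDOG, 0.68 for FDXR, 0.37 for CDKN1A and 0.75 for PHLDA3. Of these 7 BAX alone passed after the GC correction. The same held for the stress and transport genes SRXN1 at 1.09, SDF2L1 at 0.67, SLC16A3 at 0.52 and JUNB at 0.45, of which JUNB did not pass after it. Among RNAs of the organelles and the nucleus the difference was 0.41 for MT-RNR1, -0.45 for MALAT1 and -0.23 for TUG1, of which MT-RNR1 alone passed after the GC correction.

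More negative fold changes at 5 hours were found for ANO6 (-0.28), HSPH1 (-0.21), RDX (-0.24), ITGA2 (-0.30), DSG2 (-0.30), CKAP2 (-0.22), BUB1 (-0.23), RRM1 (-0.25) and SEL1L (-0.27), none of which passed after the GC correction. The largest differences by the rule for named genes were 6.72 for BOLA2B, 1.36 for MFSD14A, 1.18 for KRBOX1 and 1.12 for RPS29 on one side. On the other they were -1.10 for FAM72C, -0.96 for FAM133B, -0.86 for ZNF626, -0.86 for POMK and -0.82 for ZNF280C. BOLA2B, FAM72C and ZNF626 did not pass after the GC correction, and BOLA2B and FAM72C have close copies that can share their reads.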

How the results depend on the processing

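The 5 hour count of 3683 stayed within 1.5 times, from 2995 to 4451, under all alternatives other than removals (among them the fit without mitochondrial genes, 3931, chosen after seeing the data), which gave 1687 to 2773. Its higher share went from 45.1% to 26.2% after the GC correction and 25.3% with the replicate block as well, and EPHA2 (-0.15 and -0.15), AKT1 (-0.19 and -0.19) and CDKN1A (-0.022 and -0.022) then changed sign. Of 89 named genes that passed, 36 were lost without at least 1 library, which leaves a group with 1 library assumed to vary like the others. The time comparison (1193) gave 693 with its libraries alone, 359 after the GC correction and 396 with the replicate block as well, 199 against 1 day alone, 11506 against 4 days alone, 8560 with 4 days in the mean and 325 to 1437 in the removals. Genes passing against attached cells were 6371 to 7631 (apoptotic) and 6178 to 6390 (non-apoptotic) in the removals. List members passing, 225 of 776, were 122 to 170 in the removals. The causes were not tested.

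Same-numbered libraries of the fractions at 5 hours deviated from their group means with a correlation of 0.00971 over genes. That shows no shared deviation, but it cannot tell whether same-numbered libraries came from the same culture, which the labels do not state. With the replicate block 3717 genes passed at 5 hours and 1268 in the time comparison.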
